A study of Mus musculus with 24 samples.

Results

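The 9 genes described here form a core of the type I interferon response: Irf7, Ifit1, Ifit2, Ifit3, Isg15, Oasl2, Usp18, Rsad2 and Ifih1. They were chosen by name, as the probe sets of the deposited table that named exactly 1 of these genes, and each gene had 1 probe set. They are 9 of the 19505 named genes measured. Expression was profiled in 24 mouse samples of the outbred strain ICR-CD1, with 1 single-colour array per sample and 4 arrays in each of 6 groups. The animals descended from control grandfathers or from grandfathers labelled obese (SL), and were sampled at embryonic day 7.5 (ED7.5), at embryonic day 14.5 (ED14.5), both labelled whole embryo, and as liver at postnatal day 7.5 (PD7.5). The labels do not spell out SL, name no diet or treatment behind it, and do not tie arrays to litters or to single grandfathers. P-values therefore measure only the spread between these samples, which may be technical in part. All values are on a log2 scale, made by the authors with RMA, and a difference of 1 is a 2-fold change in signal.

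Cells that sense viral or misplaced nucleic acid make type I interferons, which bind a receptor shared by nearly all cells and switch on interferon-stimulated genes. Irf7 is both a product and a driver of this loop, because the factor it encodes turns on most interferon alpha genes and is itself interferon-induced. Ifih1 encodes MDA5, a sensor of long double-stranded RNA. The Ifit proteins bind viral RNA or block its translation, Isg15 is a ubiquitin-like protein that is attached to other proteins, Oasl2 belongs to the 2'-5' oligoadenylate synthetase family, and Rsad2 encodes viperin, an antiviral radical SAM enzyme. Usp18 removes ISG15 from its targets and dampens signalling at the interferon receptor. The liver holds resident macrophages, the Kupffer cells, which respond to interferon.

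Many of these genes carry a promoter motif, the interferon-stimulated response element, whose core was searched as GAAANNGAAA, and as TTTCNNTTTC for the opposite strand, in RefSeq promoter windows of build GRCm38.p6. A window covered 250 bases before to 50 after a start site, which for Irf7, Ifit2 and Ifit3 lay inside the gene span given below. Ifit2 had 2 windows. The core was present in 5 of the 8 genes that had a window (62.5%), against 3.99% of all 27025 genes with one and 19 of 39 other interferon-stimulated genes (48.7%). Usp18 had no entry in the table. Ifit1 and Ifit3 held the same pair of cores on the opposite strand, Isg15 held 3 overlapping cores in a row, Rsad2 held 1 before the start, and the core of Ifih1 lay after the start. Irf7, Ifit2 and Oasl2 had no match to these letters in their windows. The sequences below show the contrast between windows with and without the core; they read 5′ to 3′ on the strand of the gene, and capitals mark the core.
Ifit1, chr19:34640779-34640818, plus strand: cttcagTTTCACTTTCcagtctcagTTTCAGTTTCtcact
Isg15, chr4:156200866-156200905, minus strand: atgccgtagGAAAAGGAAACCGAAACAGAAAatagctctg
Rsad2, chr12:26456548-26456587, minus strand: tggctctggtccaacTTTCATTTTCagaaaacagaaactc
Ifih1, chr2:62646206-62646245, minus strand: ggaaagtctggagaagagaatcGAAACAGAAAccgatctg
Ifit3, chr19:34583279-34583578, plus strand: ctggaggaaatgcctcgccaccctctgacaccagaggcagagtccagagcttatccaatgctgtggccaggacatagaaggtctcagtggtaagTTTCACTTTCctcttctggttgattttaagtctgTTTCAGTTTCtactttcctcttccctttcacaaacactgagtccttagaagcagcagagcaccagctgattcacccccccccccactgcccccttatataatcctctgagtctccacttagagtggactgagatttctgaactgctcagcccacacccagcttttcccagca
Irf7, chr7:141266375-141266674, minus strand: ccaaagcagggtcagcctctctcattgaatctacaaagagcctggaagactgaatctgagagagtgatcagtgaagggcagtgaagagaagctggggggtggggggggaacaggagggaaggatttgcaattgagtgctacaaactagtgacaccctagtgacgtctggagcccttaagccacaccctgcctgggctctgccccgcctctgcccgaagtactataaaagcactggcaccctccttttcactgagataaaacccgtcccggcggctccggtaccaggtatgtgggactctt

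**Figure D1:**
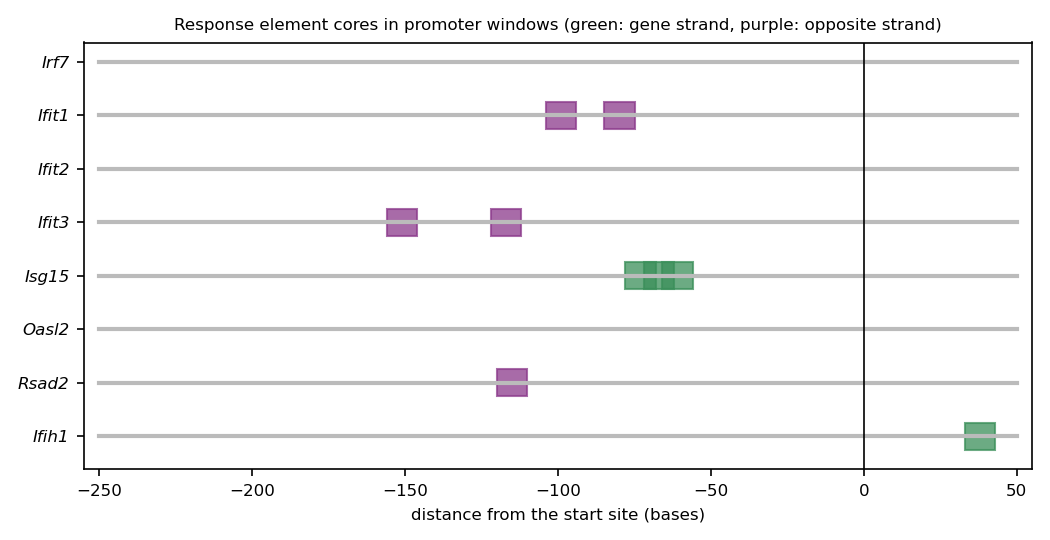
Positions of the response element core in the promoter windows of 8 genes, with the distance from the start site in bases on the x axis and 1 grey line per gene; green boxes are cores on the strand of the gene and purple boxes cores on the opposite strand. Cores of Ifit1 began 104 and 85 bases before the start, those of Ifit3 at 156 and 122, those of Isg15 at 78, 72 and 66 and that of Rsad2 at 120, while Irf7, Ifit2 and Oasl2 held none.

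The genes lie on 7 chromosomes, and coordinates are RefSeq gene spans in build GRCm38.p6. Irf7 is at chr7:141263183-141266499, Isg15 at chr4:156199424-156200818, Oasl2 at chr5:114896926-114912245, Usp18 at chr6:121245906-121270917, Rsad2 at chr12:26442743-26456452 and Ifih1 at chr2:62595618-62646255. The Ifit genes are neighbours on chromosome 19, with Ifit2 at chr19:34550550-34576534, Ifit3 at chr19:34583119-34588982 and Ifit1 at chr19:34640889-34650009. Ifit3 has a close paralog, Ifit3b, so the signal of its probe set could include RNA of both.

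The background of an array was set at the 75th percentile of its 5222 negative control probe sets and lay between 5.05 and 6.53, with 48.3% to 64.1% of genes above it. Arrays of a group had median correlations of 0.983 to 0.991 with each other. The labelled material was checked against marker genes. Liver arrays carried hepatocyte genes at list means of 13.04 to 13.13. ED7.5 control arrays carried all 11 decidua markers above background (list means 11.80 to 11.86), while 0 of 7 epiblast markers were above background on every array. Of these 7 epiblast markers, 3 were below background on every ED7.5 control array. Of trophoblast markers 2 of 5, and of visceral endoderm markers 2 of 7, were above background on every ED7.5 control array. On the same arrays all 6 measured uterine NK cell markers were above background (list means 9.29 to 10.03). ED14.5 control arrays carried hepatocyte genes at 11.47 to 11.57, and neuronal genes at 4.46 to 4.97. The ED7.5 and ED14.5 arrays are therefore called by their labelled ages below, without the name whole embryo.

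Across the ages, the control means gave 4 patterns over 8 of the 9 genes. Irf7, Oasl2, Isg15, Ifit1 and Ifit3 were highest at ED7.5, lowest at ED14.5 and between these in the liver; Ifit2 was lowest in the liver; Rsad2 was lowest at ED7.5; and Ifih1 was highest in the liver and lowest at ED14.5. Usp18 had its lowest mean at ED14.5 and close means at the other ages. In bulk samples, fewer cells of a type and less RNA per cell cannot be told apart, and here age and tissue also change together. Of the 9 genes, 8 passed the test between ED14.5 and ED7.5 in limma with Benjamini-Hochberg adjustment over all genes, 7 of them lower at ED14.5 and 1 higher. The background is high, since 50.1% of all genes passed, 25.4% lower and 24.7% higher. Between liver and ED14.5, 7 passed, 6 of them higher in liver, against 46.6% of all genes, 21% higher and 25.5% lower, and between liver and ED7.5 6 passed, 4 of them lower in liver, against 52.4% and 31.3% lower. The 3 comparisons share control arrays with each other and with the SL comparisons that follow, so they are not separate evidence.

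The control values of Irf7, the regulator, formed 3 separate levels. On the ED7.5 control arrays it read 9.95, 10.02, 10.05 and 9.86, at ED14.5 it read 5.83, 6.65, 6.51 and 5.94, and in liver 7.78, 7.82, 7.77 and 7.27. The control groups of the ages did not overlap. Irf7 fell by 3.73 from ED7.5 to ED14.5 (SE 0.188, limma adjusted p = 1.02e-09), a 13.3-fold change, although only 2 of the 4 ED14.5 control arrays were above background. It was 1.43 higher in liver than at ED14.5 (SE 0.188, limma adjusted p = 2.33e-05), and the difference of liver from ED7.5 was −2.31 in the same fit (limma adjusted p = 1.4e-07). With SL in place of control arrays, the step between ED14.5 and liver was absent for Irf7 (−0.06, limma adjusted p = 0.892). Over all 6 groups the means ran from 9.97 (ED7.5 control) and 9.87 (ED7.5 SL) to 7.66 (liver control), 6.59 (ED14.5 SL), 6.54 (liver SL) and 6.23 (ED14.5 control). The first pair overlapped, as did each neighbouring pair among the last 3, whereas liver control stood clear of the groups on either side.

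Among the effectors, Oasl2 followed Irf7 most closely (r = 0.973 over 24 arrays). It read 9.48, 8.89, 8.90 and 9.02 on the ED7.5 control arrays and 5.17, 5.95, 5.17 and 4.85 at ED14.5, where all 4 arrays were below background. That is at least 7.7-fold lower at ED14.5 (limma adjusted p = 3.4e-08; the bound sets the brighter group against background). In liver it read 6.21, 6.31, 7.02 and 5.78, at least 1.15-fold above ED14.5 (limma adjusted p = 0.00525) and overlapping that group; with SL in place of control arrays this step was 0.05 (limma adjusted p = 0.883), and that of Ifit1 0.29 (0.558). Isg15 read 7.97, 7.03, 7.38 and 7.69 at ED7.5 and 4.43, 4.31, 4.20 and 4.28 at ED14.5. It too was below background on every ED14.5 array, at least 2.62-fold lower there (limma adjusted p = 7.41e-09). Its liver values of 6.39, 6.30, 6.25 and 5.71 lay between the other ages without overlap, 3 of the 4 above background. Set against background, that is only at least 1.02-fold above ED14.5 (limma adjusted p = 2.98e-06).

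The 3 Ifit neighbours on chromosome 19 did not move alike. Ifit1 averaged 7.40 ± 0.312 (SD, n = 4) at ED7.5, 4.32 ± 1.02 at ED14.5 and 6.54 ± 0.692 in liver. It was at least 2.41-fold lower at ED14.5 than at ED7.5 (limma adjusted p = 4.13e-05) and at least 1.33-fold higher in liver than at ED14.5 (limma adjusted p = 0.000809), with all ED14.5 arrays below background. Ifit3 averaged 7.31 ± 0.65, 5.13 ± 0.587 and 7.08 ± 0.36 in the same order, at least 2.26-fold lower at ED14.5 than at ED7.5 (limma adjusted p = 7.56e-05). Neither differed between liver and ED7.5 beyond the threshold (limma adjusted p = 0.12 for Ifit1 and 0.598 for Ifit3). With SL in place of control arrays the Ifit1 difference was −1.81 rather than −0.86 and passed (limma adjusted p = 0.000932), with all 4 SL liver arrays below background. Ifit2, by contrast, averaged 7.76 ± 0.172 at ED7.5 and 7.36 ± 0.474 at ED14.5, a difference of −0.40 that did not pass (limma adjusted p = 0.193; 0.0323 without ED14.5 control array 3, which read 8.0). In liver Ifit2 fell to 6.21 ± 0.424, below both embryonic ages without overlap (limma adjusted p = 0.00123 against ED14.5 and 8.97e-05 against ED7.5). Only 3 of the 4 liver control arrays of Ifit2 were above background, which limits the size of this fall.

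Rsad2 ran the other way. It read 7.62, 5.69, 6.18 and 6.95 on the ED7.5 control arrays, 8.66, 8.44, 8.56 and 8.28 at ED14.5 and 8.49, 8.84, 8.02 and 8.31 in liver. It rose by 1.88 from ED7.5 to ED14.5 (SE 0.327, limma adjusted p = 0.00025) and the groups did not overlap. Liver and ED14.5 differed by −0.07 (limma adjusted p = 0.887). Cmpk2, a mitochondrial nucleotide kinase gene that lies beside Rsad2 at chr12:26469117-26479837, averaged 6.23 ± 0.389 at ED7.5, 7.80 ± 0.168 at ED14.5 and 7.19 ± 0.109 in liver.

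The sensor Ifih1 and the brake Usp18 had the smallest ranges of control means. Ifih1 averaged 8.82 ± 0.195 at ED7.5, 8.29 ± 0.272 at ED14.5 and 9.39 ± 0.214 in liver, and passed in each of the 3 comparisons (limma adjusted p = 0.0135, 5.71e-05 and 0.00788 for ED14.5 against ED7.5, liver against ED14.5 and liver against ED7.5). With SL in place of control arrays its difference between ED14.5 and ED7.5 was 0.14 rather than −0.53. Usp18 averaged 7.86 ± 0.395, 7.17 ± 0.395 and 7.74 ± 0.297. Its difference of −0.68 between ED14.5 and ED7.5 passed (limma adjusted p = 0.0244), the groups overlapped, and the call was lost without ED7.5 control array 1 (0.082), ED7.5 control array 4 (0.0692) or ED14.5 control array 4 (0.0808). With SL in place of control arrays it was −0.32 and did not pass (limma adjusted p = 0.215). The difference of 0.56 between liver and ED14.5 missed the threshold (limma adjusted p = 0.0636; 0.0358 without ED14.5 control array 2 and 0.0369 without liver control array 2).

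**Figure D2:**
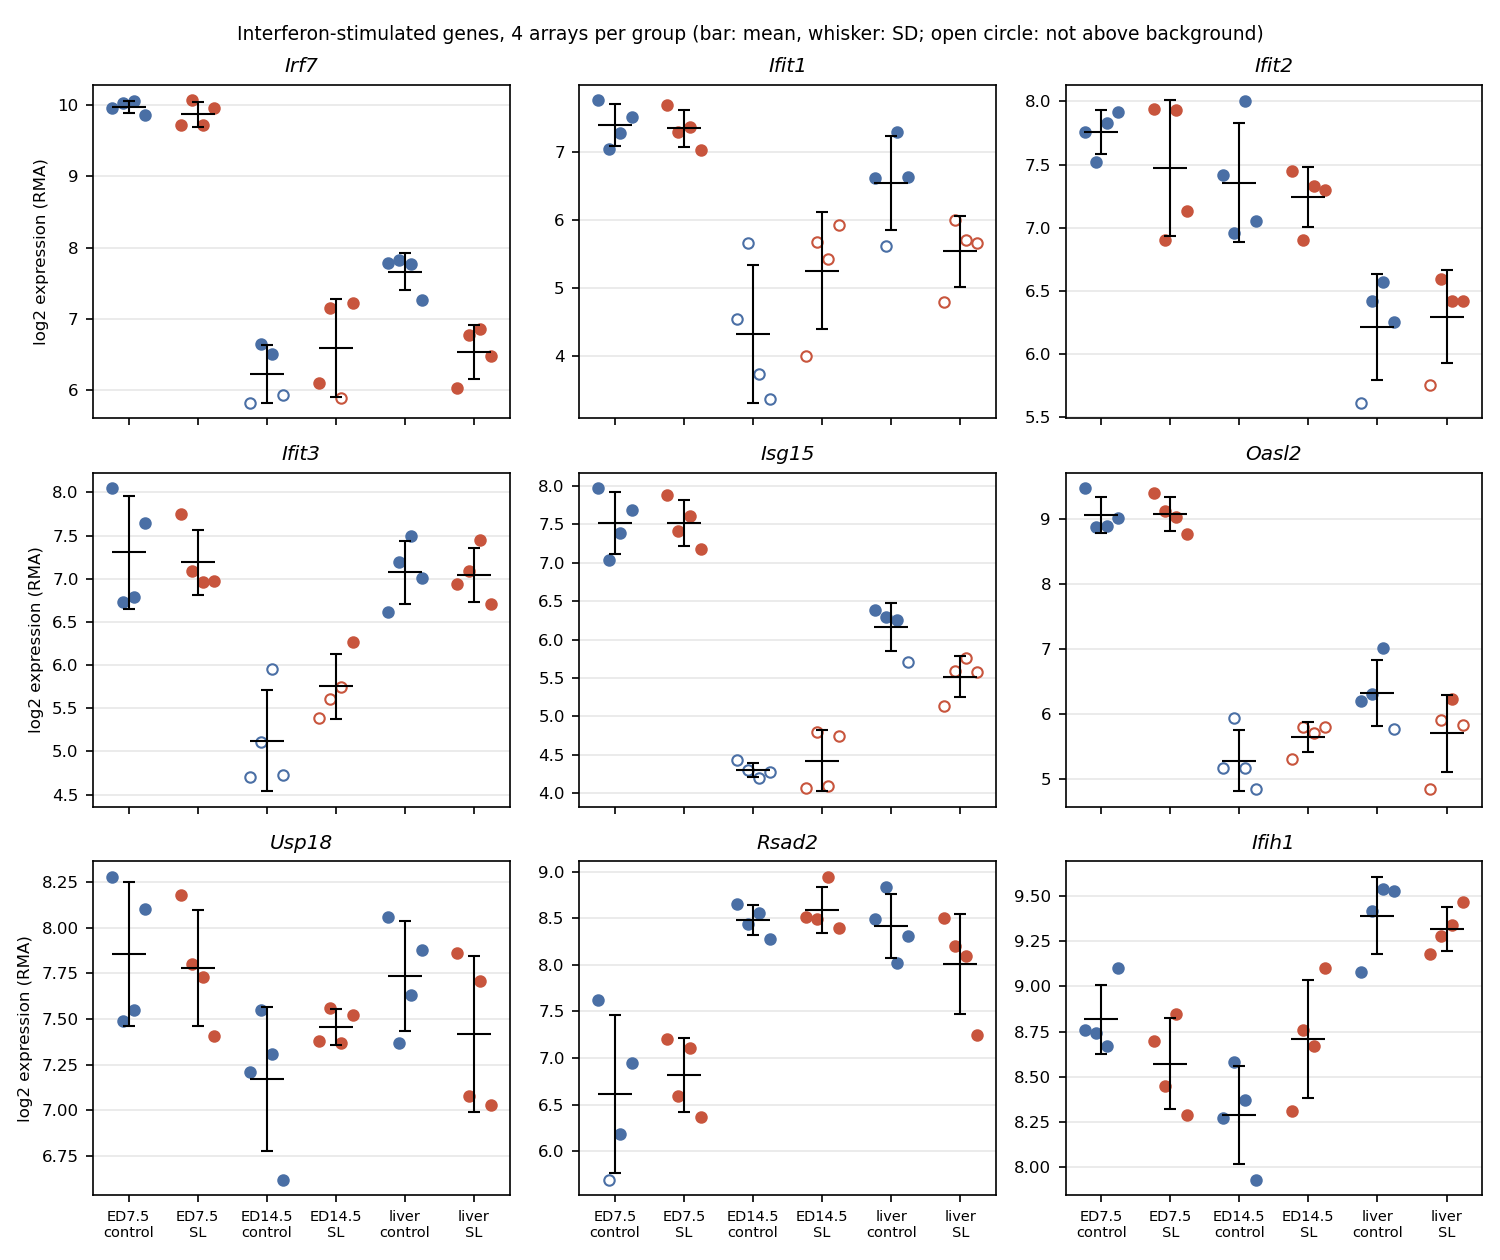
Log2 expression of the 9 genes on every array, 1 panel per gene with its own y axis; blue points are control and red points SL arrays, open circles lie at or below background, bars are means and whiskers SDs of 4 arrays. Irf7 separates the control groups of the 3 ages, Rsad2 is low at ED7.5, and in liver the SL arrays of Irf7 (6.03 to 6.86) lie below all control arrays (7.27 to 7.82).

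The wider response shared the dip at ED14.5. Of 56 other interferon-stimulated genes listed, 53 were measured, and 37 fell and 6 rose from ED7.5 to ED14.5 in the control arrays (25.4% and 24.7% of all genes), with a median difference of −1.04 against 0.027 over all genes. From ED14.5 to liver 36 rose and 4 fell, where 21% and 25.5% of all genes did (median 0.83 against −0.025). Xaf1, a pro-apoptotic interferon target, fell from 8.53 to 5.59 between ED7.5 and ED14.5 (SE 0.154, limma adjusted p = 1.6e-09; 1 of 4 ED14.5 control arrays above background), and Samhd1, which depletes nucleotides needed by viruses, fell from 12.56 to 9.52. Ube2l6, the conjugating enzyme for ISG15, rose from 7.99 to 11.21 (limma adjusted p = 9.03e-10), opposite to Isg15 itself. From ED14.5 to liver, Parp12 rose by 2.0, the immunoproteasome subunit gene Psmb8 by 2.51 and the membrane restriction factor gene Ifitm3 by 2.8.

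Upstream, 10 of 21 measured nucleic acid sensors and adaptors fell and 4 rose from ED7.5 to ED14.5, where 25.4% of all genes fell and 24.7% rose. Tlr3, an endosomal sensor of double-stranded RNA, fell from 10.78 to 5.69 (SE 0.199, limma adjusted p = 8.61e-11; 2 of 4 ED14.5 control arrays above background), Sting1, the adaptor of cytosolic DNA sensing, from 9.34 to 6.58, and Ddx58, which encodes RIG-I, from 7.90 to 6.40. Among receptors and JAK-STAT genes, 8 of 17 fell and 3 rose, so that 11 of 17 passed against 50.1% of all genes. Stat2 fell by 0.80 to ED14.5 (SE 0.0994, limma adjusted p = 1.09e-05) and was 1.57 higher in liver than at ED14.5. Irf9 differed by −0.50 between ED14.5 and ED7.5 (limma adjusted p = 0.00699). Of 24 genes induced mainly by interferon gamma, 21 rose and 1 fell from ED14.5 to liver (21% and 25.5% of all genes). Among them Iigp1, an immunity-related GTPase, averaged 9.08 and Cxcl9, a T cell chemokine, 8.21 in control livers, and both were below background on all 4 ED14.5 control arrays.

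The interferon genes themselves were at the limit of detection. Of 18 measured ligands, 11 were below background on all 24 arrays, among them Ifnb1 and Ifng, whose highest values were 4.41 and 3.52. Ifnl3 was above background on 16 arrays and Ifna5 on 12, with highest values of 6.44 and 6.27. Close paralogs in the interferon alpha family could share signal on their probe sets.

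In the liver, the question was whether the genes differed between grandoffspring of SL and control grandfathers. Irf7 read 6.03, 6.77, 6.86 and 6.48 on the 4 SL arrays against 7.78, 7.82, 7.77 and 7.27 on the 4 control arrays. Every SL array was below every control array, and Irf7 was the 1 gene of the 9 whose groups did not overlap (2.3% of all genes did not overlap in that direction). The difference was −1.12 (SE 0.21), 2.18-fold, with an unadjusted p of 0.000373 and a limma adjusted p = 0.509, so it did not pass over all genes. In this comparison 0% of all genes passed by limma, and 7.91% had an unadjusted p below 0.05, as did 3 of the 9 genes.

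Irf7 kept its sign and its side of the threshold whichever array was left out, with differences from −1.26 to −0.96 and limma adjusted p from 0.429 to 0.655. Over all 15 alternatives the adjusted p ran from 0.0724 to 0.655. Liver control array 4 was the lowest control array, at 7.27, and liver SL array 1 the lowest of all 8.

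Irf7 was above background on all 4 SL liver arrays, but near it (background 5.9, 6.19, 5.95 and 6.04). That limits the size of its difference. The genes next to Irf7 in size of difference were dimmer still in the liver. Ifit1 read 4.79, 6.00, 5.71 and 5.66 on SL arrays, none above background, and 6.62, 5.62, 7.30 and 6.63 on control arrays, 3 of them above background. The groups overlapped through control array 2, and the difference of −1.0 (SE 0.36) did not pass (limma adjusted p = 0.581). The control mean of Ifit1 lay 1.44-fold above the background of the SL arrays. Isg15 read 5.14, 5.59, 5.76 and 5.58 on SL arrays, none above background, and 6.39, 6.30, 6.25 and 5.71 on control arrays. Here control array 4 overlapped SL array 3, and the difference of −0.65 (SE 0.193) had a limma adjusted p = 0.54. The control mean of Isg15 lay 1.11-fold above the background of the SL arrays. Oasl2 read 4.86, 5.92, 6.23 and 5.83 against 6.21, 6.31, 7.02 and 5.78, a difference of −0.62 (SE 0.328, limma adjusted p = 0.681) with overlapping groups.

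The remaining 5 genes differed by −0.40 to 0.08. Rsad2 averaged 8.01 ± 0.536 (SD, n = 4) in SL and 8.42 ± 0.344 in control livers, and Usp18 averaged 7.42 ± 0.428 and 7.74 ± 0.297. For Rsad2 1 array, SL 4 at 7.25, lay apart from the other SL arrays at 8.10 to 8.5, and the difference of −0.40 was −0.15 without it. Ifih1 (−0.07, SE 0.144), Ifit3 (−0.03, SE 0.216) and Ifit2 (0.08, SE 0.246) had differences smaller than their standard errors. In all, 8 of 9 differences were below 0, where 49.3% of all genes were, and the median was −0.40 against 0.003 over all genes.

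**Figure D3:**
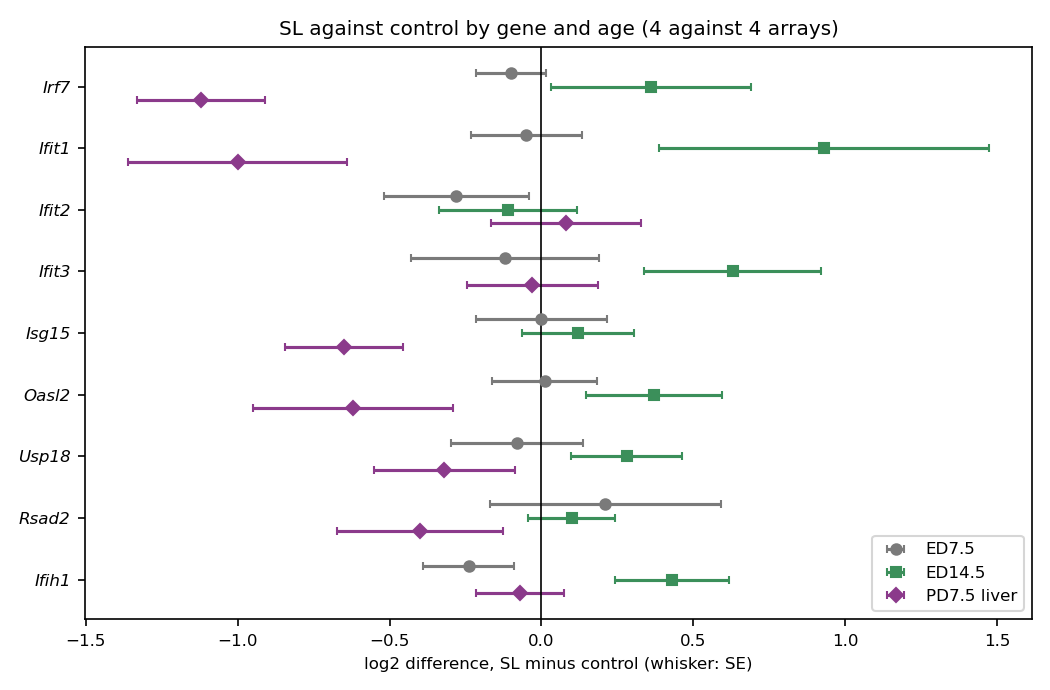
Log2 difference of SL minus control for each gene at ED7.5 (grey circles), ED14.5 (green squares) and in PD7.5 liver (purple diamonds), with whiskers for the SE from limma. In liver Irf7 stood at −1.12 and Ifit1 at −1.0, with the SL liver arrays of Ifit1 all below background, while at ED7.5 all 9 genes lay between −0.28 and 0.21; none passed the threshold.

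The 53 other interferon-stimulated genes gave 48 differences below 0 and 5 above in liver, with a median of −0.26 against 0.003 over all genes; 0 passed in limma and 13 had an unadjusted p below 0.05, where 7.91% of all genes did. Leaving out any 1 array left 45 to 49 of them below 0. Of the 53, 9 were below background on every control liver array and 11 on every SL liver array. Groups did not overlap for 4, all lower in SL, where 2.3% of all genes were: Tor3a, an interferon-induced ATPase gene (6.94 against 7.57), Cmpk2 (6.47 against 7.19), Rtp4 (6.06 against 6.54) and Eif2ak2, which encodes the RNA-dependent kinase PKR (8.89 against 9.19). Rtp4 and Eif2ak2 are named because the count is small, after their values were seen. The SL mean of Rtp4 lay within the range of background of the SL liver arrays (5.9 to 6.19). Irf9, which encodes a DNA-binding factor of the interferon response, averaged 7.61 ± 0.103 in SL and 8.19 ± 0.174 in control livers, again without overlap (difference −0.58, SE 0.133, limma adjusted p = 0.509). Over the whole receptor and JAK-STAT list, Irf9 included, 8 of 17 differences were above 0 and the median was −0.01. Socs1, a feedback inhibitor, was below background on all 8 liver arrays.

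In other branches of the pathway the 10 other IRF family genes had a median of −0.03 in liver, the 21 sensors and adaptors −0.10, with 13 below 0, and the 18 ligands 0.11. Dhx58, which encodes LGP2, differed by −0.54 (limma adjusted p = 0.653), with 1 SL and 3 control arrays above background. Of 24 genes induced mainly by interferon gamma, 19 were below 0 (median −0.15), and H2-Eb1, a class II antigen presentation gene, averaged 5.57 in SL against 6.81 in control livers without overlap (difference −1.25, SE 0.29, limma adjusted p = 0.509), with 1 of 4 SL arrays above background.

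**Figure D4:**
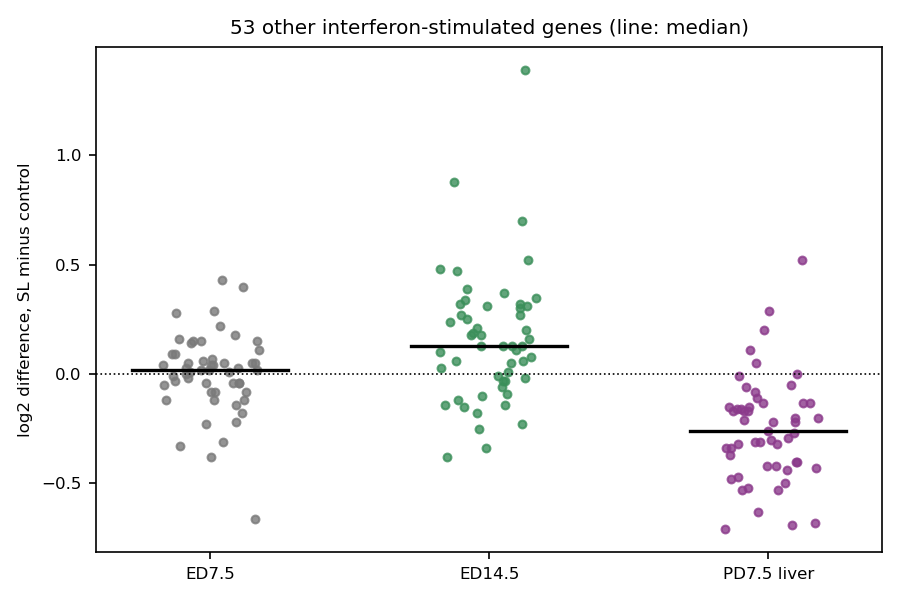
Log2 difference of SL minus control for 53 other interferon-stimulated genes at ED7.5, ED14.5 and in PD7.5 liver; each point is a gene and the line is the median. Medians were 0.02, 0.13 and −0.26, and 48 of 53 genes were below 0 in liver. Genes below background are included, among them 22 of the 53 on every ED14.5 control array.

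Markers of other cells also moved with these liver values. Kupffer cell and macrophage genes had list means of 8.60 to 8.70 on SL arrays and 8.84 to 8.97 on control arrays, with 11 of 12 measured genes below 0 and a median of −0.21. Neutrophil and monocyte genes went the other way, at 8.83 to 8.89 on SL and 8.06 to 8.74 on control arrays, with 10 of 10 above 0. Plasmacytoid dendritic cell genes overlapped at 5.42 to 5.74 and 5.36 to 5.70, and 4 of 7 were below background on every array. Erythroid genes were at 8.07 to 9.78 on SL and 9.36 to 10.15 on control arrays, 5 of 5 below 0. The separation of positive from negative control probe sets, as an area under the curve, averaged 0.902 on SL and 0.913 on control liver arrays (exact two-sided permutation p = 0.0286, the smallest that 70 regroupings of 8 arrays allow). The part of these shifts in the result was not tested.

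At ED14.5 the values leaned the other way, with 8 of 9 above 0, where 50% of all genes were, and a median of 0.36 against 0.0 over all genes. None passed by limma, where 0.0513% of all genes did, and 1 had an unadjusted p below 0.05, where 11.4% of all genes did. No gene had groups without overlap, against 7.98% of all genes. Ifih1 read 8.31, 8.76, 8.67 and 9.10 on SL arrays and 8.27, 8.58, 8.37 and 7.93 on control arrays, a difference of 0.43 (SE 0.187, limma adjusted p = 0.435). Irf7 read 6.10, 7.15, 5.90 and 7.22 on SL arrays against 5.83, 6.65, 6.51 and 5.94. Its SL arrays split into a higher and a lower pair, and the difference of 0.36 (SE 0.33) had a limma adjusted p = 0.718. Only 2 of 4 control and 3 of 4 SL arrays of Irf7 were above background. Ifit3 differed by 0.63 (SE 0.291, limma adjusted p = 0.451), with 1 SL and no control array above background, and Ifit1, Isg15 and Oasl2 were below background on all 8 arrays, so their order carries no level.

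The ED7.5 arrays carried decidua and uterine NK cell markers, and how much of their RNA came from the embryo was not tested. There 8 of the 9 genes were above background on every control array and all 9 on every SL array. Rsad2 was the exception, above background on 3 of 4 control arrays. Differences of SL from control lay between −0.28 (Ifit2) and 0.21 (Rsad2). None passed, where 0.00513% of all genes did, and limma adjusted p was 0.956 or more. None had an unadjusted p below 0.05 (5.49% of all genes), and 6 of 9 differences were below 0 (49.5% of all genes). Irf7 read 9.71, 10.07, 9.72 and 9.96 on SL arrays against 9.95, 10.02, 10.05 and 9.86, a difference of −0.10 (SE 0.116). Isg15 averaged 7.52 in both groups and Oasl2 9.08 in both. The SDs of these 2 genes within a group were 0.263 to 0.406.

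Whether the SL difference itself changed with age was tested as an interaction over all 24 arrays, and 0 of 9 genes passed for any pair of ages. Between liver and ED14.5 the interaction of Irf7 was −1.48 (SE 0.36, unadjusted p = 0.000448, limma adjusted p = 0.126), where 0.0256% of all genes passed. An unadjusted p below 0.05 was seen for 5 of 9 genes and for 10.6% of all genes. Of these 5, Ifit1, Isg15 and Oasl2 were below background on all 8 ED14.5 arrays, so their interactions carry no size. The others were Ifih1 and Irf7. At ED14.5 only 2 of 4 control and 3 of 4 SL arrays of Irf7 were above background, which limits the size of its interaction. Between liver and ED7.5 Irf7 stood at −1.02 (limma adjusted p = 0.401; 0.00513% of all genes passed), and between ED14.5 and ED7.5 Ifih1 at 0.67 (limma adjusted p = 0.465; 0.0769% passed). At an unadjusted p below 0.05 there were 2 and 1 of the 9 genes in these, against 9.19% and 6.92% of all genes.

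Single arrays carried much of the spread, as the plot of array deviations shows. The deviation of an array was taken as the mean over the 9 genes of its value minus the mean of its age. ED7.5 control array 1 stood at 0.41, with all 9 genes above the mean of the age and 6 of them highest there. ED7.5 control array 2, which had the highest background of all arrays (6.53), stood at −0.32. Counts at ED7.5 turned on these arrays: 6 of 9 genes were below 0, but 3 without control array 1, and of the 53 other genes 22 were below 0, but 13 without control array 1, 40 without control array 2 and 34 without control array 3. The 9 genes stood at 0.41, −0.32, −0.15 and 0.20 on ED7.5 control arrays 1 to 4 and 0.28, −0.14, 0.04 and −0.32 on the SL arrays. Uterine NK cell markers stood at 0.19, −0.35, −0.0 and 0.39, then 0.24, −0.47, 0.26 and −0.27. A link with the 9 genes was not tested. At ED14.5, control array 4 stood at −0.57, with all 9 genes below the mean, and SL array 4 at 0.46. Ifit1, Isg15 and Oasl2, below background on all 8 ED14.5 arrays, enter this mean. Over the 53 other genes these arrays stood at −0.11 and 0.38.

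Among liver arrays, control array 3 stood highest at 0.46, with 4 of 9 genes highest there, and it also had the lowest background of the liver arrays (5.65). SL array 1 stood lowest at −0.49, with 4 genes lowest there, and SL array 4 at −0.34. Control arrays 1, 2 and 4 lay at 0.16, 0.20 and 0.10, above SL arrays 2 and 3 at −0.11 and 0.01. Leaving out any 1 liver array left 7 to 9 of the 9 genes below 0, with medians from −0.47 to −0.18. For the 53 other genes, the liver control arrays lay at 0.06 to 0.20 and the SL arrays at −0.17 to −0.06.

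**Figure D5:**
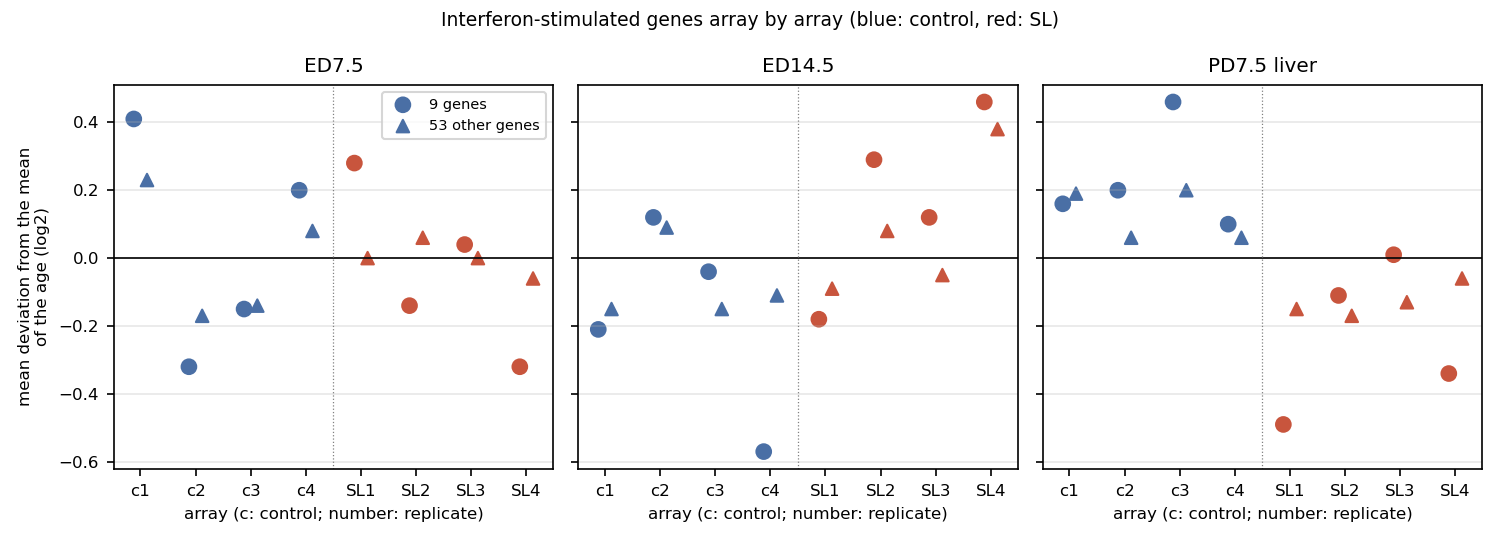
Mean deviation of each array from the mean of its age in log2, over the 9 genes (circles) and 53 other interferon-stimulated genes (triangles), with control arrays in blue and SL arrays in red. At ED7.5 the groups interleave, at ED14.5 control array 4 (−0.57) and SL array 4 (0.46) are the extremes for the 9 genes, and in liver the 9 genes lie at 0.10 or above on control arrays and at 0.01 or below on SL arrays.

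Within groups the genes varied together in part. After group means were subtracted, the 36 pairs had a median Pearson r of 0.377 over the 24 arrays, with 33 above 0, against 0.027 between these genes and all others. The median was 0.562 at ED7.5, 0.361 at ED14.5 and 0.242 in liver, each over 8 arrays that share array quality and background, with 28, 29 and 21 of the 36 pairs above 0. Irf7 itself was negatively correlated with all 8 other genes at ED7.5, from −0.932 (Ifit2) and −0.843 (Ifih1) to −0.374 (Oasl2). The SD of Irf7 at ED7.5 was only 0.0843 in control and 0.181 in SL arrays, so these r values rest on small deviations. In liver the r of Irf7 ran from −0.379 (Usp18) to 0.937 (Isg15), with Isg15 below background on all 4 SL liver arrays. The ED14.5 median includes Ifit1, Isg15 and Oasl2, below background on all 8 ED14.5 arrays. Across all 24 arrays as deposited, the genes most like Irf7 were Oasl2 (r = 0.973), Bdnf (0.972), Wls (0.971), Tnfrsf23 (0.966) and Tmem144 (0.965), an order set largely by the ages. Isg15 ranked 342 of 19504 (r = 0.934) and Rsad2 stood at −0.832. With group means subtracted, the most alike were Zbtb46 (0.789), Lrig3 (0.736), Parp12 (0.733), Elp2 (0.733) and Gvin1 (0.732). Parp12 is itself an interferon-stimulated gene, and of the 9, Oasl2 was the closest at 0.541.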

How the data were processed

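Per the labels' protocols, Trizol was used to isolate RNA, of which 6 µg gave biotinylated cRNA. The deposited table holds log2 probe set values made by the authors with RMA in oligo, per the submitters' processing notes. RMA normalizes quantiles across arrays, which hides a shift of all genes, and it compresses dim signals; neither a version nor a joint run is stated. Of 22206 probe sets that were no controls, 19572 named 1 gene and 2634 none, and the brightest was kept for 55 genes with several, which left 19505. No further normalization was applied.

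SL was compared with control within each age, ages within the 12 control arrays, and the SL difference between ages over 24 arrays, with limma 3.58.1 in R 4.3.3, two-sided, adjusted by Benjamini-Hochberg over all genes, threshold 0.05; the code was tested on simulated data. Where 1 group lay at or below background on every array, a fold is given as at least the ratio to background, or as that ratio where the test did not pass. This ratio uses group means and carries no sampling error. The number of arrays limits the precision. The genes, the lists and the naming rule were chosen with earlier results of these data known. The rule named the 9 genes, up to 4 genes per pathway list that passed with the smallest p, otherwise the 2 with the smallest p in liver, and 5 genes most like Irf7; the text describes a selection of these. Same-numbered arrays were not paired, since their deviations correlated between −0.165 and 0.116. The same-numbered SL array was still the closest match for liver control arrays 2, 3 and 4 (r = 0.097, 0.116 and 0.066). It was so at ED14.5 for control array 4 (r = 0.016). A block on replicate number is among the alternatives.

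The alternatives were a trended robust prior, array weights, 1 fit over the 24 arrays, a block on replicate number, a filter on the dimmest 33% of genes, quantile normalization, the mean of several probe sets, SL in place of control arrays, and leaving out each array.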

Additional observations from a re-analysis of the deposited data

Results flagged for a closer look

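In each group of 4 arrays the highest and the lowest value were tested for lying apart from the other 3 by Dixon's test of the gap over the range. Of 54 tests 2 did, and chance gives about 1 in 20. Irf7 on liver control array 4 was 7.27, with the other control arrays at 7.77 to 7.82. Ifit3 on ED7.5 SL array 1 was 7.75, with the other SL arrays at 6.96 to 7.09.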

How the results depend on the processing

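Counts of the 9 genes that passed stayed within 1.5 times of the reported ones under all alternatives except 1: with SL in place of control arrays 4 passed between liver and ED14.5, where the differences of Irf7 and Usp18 turned to −0.06 and −0.04, and that of Ifih1 between ED14.5 and ED7.5 turned to 0.14. Array weights turned Isg15 (−0.06) and Oasl2 (−0.03) at ED7.5, Ifit3 in liver (0.01) and the Rsad2 interaction of ED14.5 with ED7.5 (0.02). Quantile normalization turned Isg15 at ED7.5 (−0.01) and Ifit3 in liver (0.03). The Usp18 difference between liver and ED14.5, not past the threshold as reported, passed with a trended robust prior (limma adjusted p = 0.0348), the filter on dim genes (0.0443) and quantile normalization (0.0452). Without 1 array, counts were 0 to 0 in the SL comparisons and interactions, 7 to 9 for ED14.5 against ED7.5, 7 to 8 for liver against ED14.5 and 6 to 6 for liver against ED7.5. The cause of these changes was not tested, and each gene that turned was uncalled in that comparison, except Irf7 and Ifih1.

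Differences that changed sign without 1 array ranged as follows. At ED7.5, SL minus control ran from −0.17 to 0.07 for Ifit1, −0.31 to 0.13 for Ifit3, −0.16 to 0.16 for Isg15, −0.10 to 0.14 for Oasl2, −0.21 to 0.06 for Usp18 and −0.10 to 0.54 for Rsad2. At ED14.5 it ran from −0.25 to 0.10 for Ifit2, −0.01 to 0.24 for Isg15 and −0.02 to 0.17 for Rsad2, and in liver from −0.12 to 0.26 for Ifit2 and −0.18 to 0.11 for Ifit3. Between control ages, Rsad2 ran from −0.21 to 0.06 (liver minus ED14.5), and Ifit3 from −0.42 to 0.02 and Usp18 from −0.24 to 0.02 (liver minus ED7.5). Interactions ran from −0.02 to 0.38 for Ifit2 (liver with ED14.5 and ED14.5 with ED7.5), −0.16 to 0.28 for Ifit3 (liver with ED7.5), and −0.04 to 0.28 for Isg15 and −0.44 to 0.20 for Rsad2 (ED14.5 with ED7.5).

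With the replicate number as a replicate block, 0 of 9 genes passed at ED7.5, ED14.5 and in liver, the same as without it; the numbers share no stated pairing. Isg15 at ED14.5 was removed by the filter on dim genes. The core of the response element lay before the start in 4 genes rather than 5. Dim signal limits Ifit1, Isg15, Oasl2 and Irf7 at ED14.5 and in SL livers, Ifit3 at ED14.5 and Ifit2 in liver. The counts without single arrays for the 53 other genes were added after seeing the data.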

Other observations

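At ED14.5, 37 of 53 other interferon-stimulated genes had differences above 0 (median 0.13). Of the 53, 22 were below background on every control array and 18 on every SL array, so the signs of these dim genes carry no level. For 6 genes the SL arrays were above all control arrays, where 3.71% of all genes were. The 6 were named after their values were seen. Bst2, which tethers budding virus at the cell surface, averaged 8.48 in SL and 7.09 in control samples (difference 1.39, SE 0.369, limma adjusted p = 0.218). Parp9 differed by 0.70 (SE 0.142, limma adjusted p = 0.121), Ifit3b by 0.88, Eif2ak2 by 0.48, Samd9l by 0.47 and Ifitm1 by 0.31. For Ifit3b both means, 5.64 in SL and 4.76 in control samples, lay below the lowest background of the ED14.5 arrays (5.98). SL array 4 stood at 0.38 over the 53 genes, and the other 7 arrays at −0.15 to 0.09; leaving out any 1 array left 30 to 42 above 0. Eif2ak2 lay above control in all SL arrays at ED14.5 and below control in all SL arrays in liver, with differences of 0.48 and −0.29 (interaction −0.78, SE 0.157, limma adjusted p = 0.0648).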
